A study of Mus musculus with 6 samples.

Results

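Footprints in 5' untranslated regions (UTRs) were described in mouse embryonic stem cells, in a control and after knockdown of the glycolytic enzyme pyruvate kinase M (PKM). The members were selected on ribosome footprints themselves, as all rows of the deposited table with at least 100 footprints in the 5' UTR in both footprint libraries together. The rule kept 2835 of 6535 rows, and 3700 fell below it, of which 680 had 0 footprints in the 5' UTR in either library. A high number of 5' UTR footprints in a member is therefore a matter of selection and not a finding. Just inside the limit, at 100 footprints, were B230208H17Rik (now Rabl6) with 55 in the control and 45 after knockdown, Faim and Hmmr with 61 and 39 each, Hsbp1 with 53 and 47, and Isy1 with 63 and 37. Just outside, at 99, were Taf2 (57 and 42), Tmem106b (58 and 41), Tubg1 and Zfp410 (52 and 47 each) and Vps13a (56 and 43).

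The cells were wild-type E14, a mouse embryonic stem cell line, kept on gelatin with serum and LIF. One culture condition received a non-targeting siRNA pool (siCtrl) and the other a pool against PKM, covering both splice forms (siPKM), each at 20 nM for 36 h, with a passage 16 h before the cells were collected. Cycloheximide, which halts elongating ribosomes, was applied at 100 µg/ml for 2 min in both, and ribosomes were pelleted through sucrose after digestion with RNases A and T1 in place of RNase I. Each condition gave 1 library of ribosome-protected fragments (RPF, here footprints) and 1 library of rRNA-depleted total RNA. A further 2 libraries, replicates of an iCLIP experiment on FLAG-HA-tagged PKM2 after UV light at 0.35 J/cm2, were used only as a side readout. With 1 library per group there was no replicate check and no test of the conditions. Intervals are 95% intervals from the read counts and cover counting error only, since PCR copies of a molecule cannot be told from separate molecules here.

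A 5' UTR is the stretch of a messenger RNA ahead of its main reading frame, and the small ribosomal subunit scans it from the cap towards the start codon. Ribosomes that initiate on the way translate upstream open reading frames, short frames that often lower initiation at the main start codon. Some messages of the stress response, of which that of the transcription factor ATF4 is the textbook case, use such frames to escape or relieve repression when initiation factor eIF2 is phosphorylated. Messages with a terminal oligopyrimidine tract, mostly for ribosomal proteins and elongation factors, have short 5' UTRs and are controlled through mTOR.

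The 3 measures used below were ratios of counts. The first was the number of 5' UTR footprints per 100 footprints in the coding sequence (CDS), where the CDS count left out the first 15 and last 5 codons. The same ratio in RNA reads was its reference. The third was 5' UTR translation efficiency (footprints per RNA read in the 5' UTR) relative to CDS translation efficiency, given as a log2 difference, in which the length of the 5' UTR cancels. It was given for the 2818 members with at least 20 RNA reads in the 5' UTR in both RNA libraries together. The libraries held between 10357272 and 15193841 CDS reads. How a read that spans the start codon was assigned to the 5' UTR or the CDS is not given in the sources used here, so a footprint of a ribosome on the main start codon could be counted in either. How strand was handled was not given either, so reads of an overlapping antisense gene could not be told apart.

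The 6 members below are printed because their 5' ends hold a short reading frame that is complete within the first 50 transcribed bases. They are among those with the highest 5' UTR translation efficiency relative to the CDS of all members with such a frame and at least 40 RNA reads in the 5' UTR. They were chosen after the values were seen. Sequences and positions are from RefSeq on GRCm38.p6, whereas the footprints were counted on the mm9 build, so the transcript start of the deposited counts may differ. Lower case marks flanking bases, and capitals run from the first ATG in frame through its stop codon. Positions given below are those of the capitals.
Cnot6: gccATGATGCTTGTTTGCTTTCAATGAaaa
Cdc123: gcggagATGTAAgct
Ccng1: acgtagATGCGTCCCAGCTAGaga
Ccdc71: ctgcacATGCCACGGCAGGAGTAGggc
Dlg1: gctgagATGGCTTAGtgg
Itsn2: gccgccATGTTGTTGTGGGGCTGAggc

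The Cnot6 frame lies at chr11:49712676-49712699 on the minus strand and has 7 codons before its stop. Cnot6 encodes a deadenylase of the CCR4-NOT complex. Its 5' UTR held 154 footprints in siCtrl and 143 in siPKM beside 258 and 191 in the CDS, that is 59.7 and 74.9 per 100. RNA reads gave 5.38 and 4.75 per 100, so that 5' UTR translation efficiency was 3.46 (2.93 to 3.99) above CDS translation efficiency on the log2 scale in siCtrl and 3.96 in siPKM. The frame of Ccng1, which encodes cyclin G1, lies at chr11:40755255-40755269 on the minus strand. Ccng1 had 548 and 382 footprints in the 5' UTR, 90.3 and 96.7 per 100, against 18.4 and 16.7 per 100 among RNA reads. Its relative 5' UTR translation efficiency was 2.29 (2.07 to 2.51) and 2.53. In Cnot6 and Ccng1 the ratio was thus higher in footprints than in RNA reads in both conditions.

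The frame of Cdc123, an assembly factor of eIF2, at chr2:5845160-5845165 on the minus strand, is a start codon directly followed by a stop. Cdc123 had 73 and 54 footprints in the 5' UTR, with a relative 5' UTR translation efficiency of 2.43 (1.65 to 3.20) in siCtrl and 0.86 in siPKM. The 2 values rested on 16 and 32 RNA reads in the 5' UTR. Dlg1, a scaffold protein of cell junctions, has its frame at chr16:31695558-31695566 on the plus strand and stood at 1.95 (1.59 to 2.31) and 1.82. The frame of Itsn2, an endocytic scaffold protein, is at chr12:4593031-4593048 on the plus strand, and its values were 1.84 (1.31 to 2.36) and 1.82. Ccdc71, with its frame at chr9:108452512-108452529 on the plus strand, stood at 2.27 (1.55 to 2.99) and 1.78. The relative values of Dlg1, Itsn2 and Ccdc71 were similarly high in both conditions. In Itsn2 footprints per 100 went from 17.6 to 11.3, a log2 change of -0.63 (-1.12 to -0.14). Its RNA reads per 100 went from 4.89 to 3.20, a change of -0.61 (-1.27 to 0.06).

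Such a frame was no mark of the members. A start window from RefSeq was found for 2287 members, and an ATG followed by a stop codon in frame within the first 50 bases (transcript strand only) was in 7.35% of them, against 7.94% of 2999 other rows and 11.7% of all 32851 windows in the table. Any ATG was in 27.4% of the members, 43.5% of the other rows and 44.3% of all windows. In a message with a short 5' UTR the ATG in this window can be the main start codon. A C at the first base followed by 4 pyrimidines, the pattern of terminal oligopyrimidine messages, was in 3.76% of members, 2.47% of other rows and 2.51% of all windows. A row was counted where any start window of its gene held the feature, whereas the shares of all windows count single windows. Shares of rows and of windows are therefore unlike measures. Members with a complete frame in the window had a median relative 5' UTR translation efficiency of 0.31 (168 members), and those without had 0.30 (2107). Their median CDS translation efficiencies were -0.18 and -0.08.

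The targeted gene, a member under the name Pkm2 (now Pkm), was lower after knockdown in the 5' UTR and the CDS and in both kinds of library. Its 5' UTR footprints went from 3752 in siCtrl to 1188 in siPKM and its CDS footprints from 80593 to 21120. RNA reads went from 1912 to 505 in the 5' UTR and from 60849 to 16371 in the CDS. The 5' UTR footprints per 100 CDS footprints were 4.66 and 5.62, a log2 change of 0.27 (0.18 to 0.37), and the RNA reference changed by -0.03. As to the cell type, 25 members were genes of the pluripotent state, and of the markers of other cell types 0 trophoblast and 0 neural genes were members, 1 was a primitive endoderm gene (Lamb1) and 2 were fibroblast genes (Vim and Fn1). The table held 36 rows of the pluripotency list, 3 rows each of the trophoblast, primitive endoderm and neural lists and 2 of the fibroblast list. Membership rests on 5' UTR footprints, so these counts do not measure whether a marker was expressed.

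The members held nearly all footprints that the table counted in 5' UTRs. They had 895905 of these in siCtrl, or 94.0% of the total, and 698949 in siPKM, or 93.5%, beside 66.6% and 66.2% of the CDS footprints. Pooled over members, there were 8.86 (8.84 to 8.88) 5' UTR footprints per 100 CDS footprints in siCtrl and 8.41 (8.39 to 8.43) in siPKM. RNA reads of the same members gave 9.79 (9.77 to 9.81) and 9.41 (9.39 to 9.44). In the other rows the pooled values were 1.14 and 1.14 for footprints and 2.25 and 2.14 for RNA reads. The pooled level of the members was thus lower in siPKM in footprints and in RNA alike.

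The members spread over several orders of magnitude. In siCtrl the lowest member had 0.218, the median member 12.03 and the highest 3576 5' UTR footprints per 100 CDS footprints, and in siPKM these were 0.213, 11.69 and 3102. At least 10 per 100 were found in 1625 members in siCtrl and 1557 in siPKM, at least 50 in 196 and 170, and at least 100 in 32 and 32, of which 25 were the same. Levels in both conditions had a Spearman correlation of 0.98 across the 2818 members with an RNA reference. Levels in footprints and in RNA within siCtrl had one of 0.74. These correlations are across genes, which are not independent replicates, and the lengths of each gene's 5' UTR and CDS are common to both sides.

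**Figure D1:**
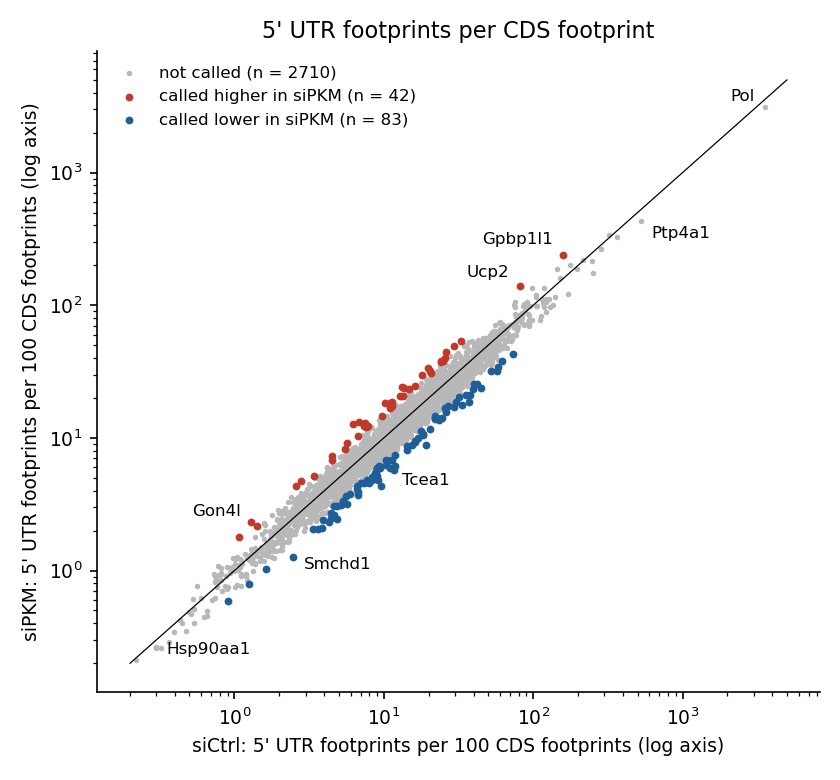
5' UTR footprints per 100 CDS footprints of each of the 2835 members in siCtrl (x axis) and siPKM (y axis), both on log axes, with the line of equality. Points called higher (42) or lower (83) in siPKM by at least 1.5-fold with an interval that left out 0 are coloured, and most members lie close to the line from 0.2 to over 500 per 100.

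The row with the most 5' UTR footprints was named Pol, the symbol of a retroviral polymerase, and had no match to a RefSeq gene. It held 16700 footprints in the 5' UTR in siCtrl and 7817 in siPKM beside only 467 and 252 in the CDS. Retroviral sequences are repeated in the genome, so its reads are uncertain. Without Pol the pooled levels were 8.69 per 100 in siCtrl and 8.31 in siPKM. Next in number were Eef1a1, the elongation factor that brings aminoacyl-tRNA to the ribosome, with 10099 and 10093, Npm1, a nucleolar chaperone, with 9326 and 6878, and the tubulin Tubb5 with 9305 and 8148. Trim28, a corepressor of retroviral elements, had 8148 and 4918, prothymosin alpha (Ptma) 7327 and 5340, nucleolin (Ncl) 6740 and 4870, and the ribosomal protein gene Rps20 5715 and 5048. Rplp1 and Gnb2l1 (now Rack1), a scaffold on the small subunit, had 4495 and 3930 and 4367 and 3593. Most of these rows are also abundant in the CDS, and their 5' UTR footprints per 100 CDS footprints in siCtrl ran from 8.47 for Ncl to 69.1 for Rps20.

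Relative to the CDS, the order was different. After Pol, the phosphatase Ptp4a1 had the most 5' UTR footprints per 100 CDS footprints, at 529 (465 to 604) in siCtrl and 431 (381 to 489) in siPKM, from 1460 and 1350 footprints. Its RNA reads gave 108 and 105 per 100. The related phosphatase Ptp4a2 stood at 284 and 266, with RNA at an excess over CDS reads as well (1493 and 1241 reads in the 5' UTR against 1147 and 863). Both messages thus carried more reads ahead of the main frame than in the counted part of it, in footprints and RNA.

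Smad7, the inhibitory SMAD of TGF-beta signalling, had 322 (284 to 365) and 340 (300 to 385) per 100, with 151 and 165 among RNA reads. Thymosin beta 10 (Tmsb10), a small actin-binding protein, had 363 and 327, and Serp1, a small protein of the ER membrane, 250 and 174. The initiation factor Eif1a had 247 and 217 and the GC-rich promoter binding protein Gpbp1 176 and 201, while Gpbp1l1 had 158 and 240. Eif1a has a close copy, Eif1ax, so that its counts are uncertain. E130012A19Rik (now Epop), a Polycomb-associated protein, had 215 and 220, the Cdc42 effector Cdc42se2 196 and 186, the mitochondrial import subunit Tomm5 150 and 162, the nuclear receptor Nr1h2 144 and 189 and Zfp706 139 and 116. Rpl41, the smallest ribosomal protein, had 170 and 121.

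Very short reading frames leave few codons to count once 15 and 5 are taken off, so footprints in the first 15 codons were set beside them. Rpl41 had 7432 of these per 100 CDS footprints in siCtrl, Tmsb10 206, Tomm5 105, Zfp706 60.6 and Serp1 58.5, beside a median of 4.77 over all members. Ptp4a1 had 30.4, Smad7 14.4, Cdc42se2 12.2 and Gpbp1 1.08. Over the quartiles of 5' UTR footprints per 100 CDS footprints, the median of first-codon footprints was 3.99, 4.06, 5.30 and 7.36 per 100, and both measures have the CDS footprints as denominator.

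Relative to CDS translation efficiency, most members had more footprints per RNA read in the 5' UTR than in the CDS. The median relative 5' UTR translation efficiency was 0.30 on the log2 scale in siCtrl and 0.30 in siPKM, with 1796 and 1793 of 2818 members above 0. Among members with at least 100 RNA reads in the 5' UTR in both RNA libraries together the medians were lower, 0.16 and 0.18. In siCtrl the interval was above 0 for 1285 members and below 0 for 618. The lowest quartile of members ended at -0.26 and the highest began at 0.92. The members were chosen by the numerator of this measure, a choice that favours high values. Their position above 0 is therefore in part a matter of selection, and over all rows the siCtrl median was -0.03. For the same reason their median of 0.30 against -0.39 in the other rows is no test of a difference. Across members the values in both conditions had a Spearman correlation of 0.88.

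The highest values belonged to 2610507B11Rik at 5.17 (4.61 to 5.72) in siCtrl and 4.94 in siPKM, and Tmem183a at 4.96 (4.45 to 5.47) and 4.74. For Tmem183a the 5' UTR held 182 and 139 footprints and 44 and 45 RNA reads, while the CDS held 226 and 175 footprints and 1720 and 1532 RNA reads. Rnf10, a RING finger ubiquitin ligase, stood at 4.40 (4.08 to 4.73) and 4.53, from 1072 and 666 footprints on 92 and 98 RNA reads in the 5' UTR. Among the 10 highest, Rnf10 was the row other than Pol with the most 5' UTR footprints. The centromere protein Cenpb (4.33 and 3.81), the SOCS box protein Wsb2 (4.17 and 3.23), the homeobox protein Adnp (3.62 and 3.13), the liver X receptor beta gene Nr1h2 (3.60 and 4.19), the adhesion receptor Gpr125 (now Adgra3, 3.56 and 3.42) and Scap, the escort of the sterol-regulated SREBP factors (3.53 and 3.58), followed. In the 5' UTR 2610507B11Rik rested on 33 and 34 RNA reads, Cenpb on 21 and 30, Adnp on 24 and 32 and Scap on 16 and 17. All 9 genes were more than 3 above 0 in both conditions, as was Pol (4.35 and 4.56).

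The 10 lowest members had few footprints in the 5' UTR for their RNA. The ribosomal protein gene Rpl13 stood at -3.99 (-4.27 to -3.71) in siCtrl and -4.06 in siPKM, with 107 and 66 footprints on 2305 and 1605 RNA reads in the 5' UTR. The ribosomal protein genes Rps9 (-4.02 and -3.64) and Rps10 (-3.27 and -2.96) and beta-actin, Actb (-3.70 and -3.79), were similarly low. Linker histones Hist1h1a (-3.61 and -3.11) and Hist1h1d (-3.41 and -3.19), the core histone Hist2h2bb (-3.34 and -3.47), the glycolytic enzyme Pgam1 (-3.38 and -2.84) and the chaperone Hsp90aa1 (-3.25 and -3.40) were also among the 10 lowest. Ribosomal proteins, histones, actin and glycolytic enzymes have near-identical copies or pseudogenes, so these single-gene values are uncertain.

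The relation to CDS translation efficiency was read in several ways, because some of the ratios share counts. Members in the lowest quartile of CDS translation efficiency in siCtrl had a median of 21.4 5' UTR footprints per 100 CDS footprints, and those in the next quartiles 11.4, 9.77 and 9.35. The RNA reference was nearly level, with medians of 9.97, 9.34, 9.57 and 9.45 per 100. The Spearman correlation with CDS translation efficiency was -0.32 for footprints and -0.01 for RNA reads (2818 members). The footprint ratio shares its CDS footprints with translation efficiency and the RNA ratio its CDS RNA reads, and each such shared count by itself links the measures. The rule of at least 100 5' UTR footprints also means that members with few CDS footprints have high footprint ratios by selection.

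Translation efficiencies of the 5' UTR and of the CDS share no counts. Their Spearman correlation was 0.41 in siCtrl and 0.36 in siPKM. Members with many footprints per RNA read in the CDS thus tended to have many in the 5' UTR. The members were chosen by their 5' UTR footprints, a term of 5' UTR translation efficiency, so the correlation describes the members only. From the lowest to the highest quartile of CDS translation efficiency the median relative 5' UTR translation efficiency was 1.06, 0.33, 0.05 and -0.04. By quartile of the relative value, the median CDS translation efficiencies were 0.23, 0.04, -0.13 and -0.73. CDS translation efficiency is a term of that relative value, which ties the 2 quantities together.

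At least 4-fold above the CDS in siCtrl were 110 members, a limit chosen after the values were seen, and 74 of them were also at least 4-fold above in siPKM. CDS translation efficiency was below 0, the level at which a gene's share of CDS footprints equals its share of CDS RNA reads, in 99 of these 110, beside 1546 of all 2818 members. At least 4-fold below were 78 members, of which 38 had a CDS translation efficiency below 0. Of the 10 highest members only Adnp had a CDS translation efficiency above 0, at 0.36. CDS translation efficiency is a term of the relative value that chose all these members, so nothing is read from these counts.

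**Figure D2:**
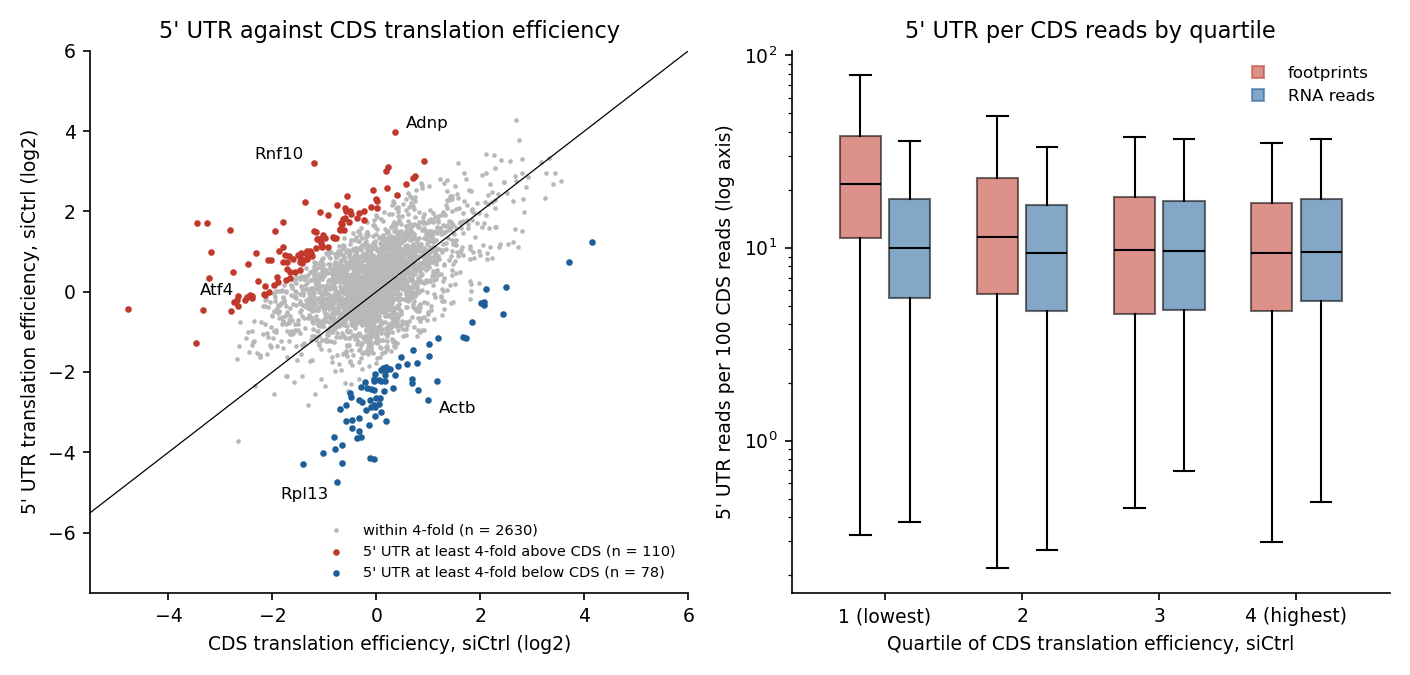
Left, 5' UTR translation efficiency against CDS translation efficiency in siCtrl (log2) for the 2818 members with an RNA reference, with the line of equality, and with the 110 members at least 4-fold above and the 78 at least 4-fold below it in colour. Right, 5' UTR reads per 100 CDS reads (log axis) by quartile of CDS translation efficiency, where boxes span the quartiles, lines mark medians and whiskers reach the farthest member within 1.5 box lengths: the footprint median falls from 21.4 to 9.35 while the RNA median stays between 9.34 and 9.97.

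Stress response messages known for upstream frames stood high. Of 25 symbols on the list 13 were in the table and 11 were members, with a median of 18.4 5' UTR footprints per 100 CDS footprints in siCtrl and 20.5 in siPKM. Their median relative 5' UTR translation efficiency was 0.81 and 1.47, beside 0.30 over all members. Above 0 in siCtrl were 9 of 11, beside 1796 of all 2818 members. Between siCtrl and siPKM the median log2 change was 0.14 in 5' UTR footprints per CDS footprint and -0.22 in the RNA reference. The median CDS translation efficiency was -0.83, against -0.08 over all members. The lists were drawn up with earlier results of these data known, so these medians are descriptions.

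Atf4 led the list, with 971 footprints in the 5' UTR in siCtrl and 709 in siPKM beside 816 and 525 in the CDS, or 119 (108 to 131) and 135 (120 to 151) per 100. RNA reads gave 23.5 and 26.7 per 100. The relative 5' UTR translation efficiency of Atf4 was 2.34 in siCtrl and 2.34 in siPKM, and its CDS translation efficiency in siCtrl was -2.54, with a change of -0.15 (-0.33 to 0.02). Ppp1r15b, a subunit that directs the dephosphorylation of eIF2, had 48.0 and 53.0 footprints per 100 and relative values of 1.23 and 1.60. Ifrd1, a transcriptional coregulator, had 50.9 and 57.6 per 100 and relative values of 1.24 and 1.98. The RNA reference changed by 0.18 for Atf4, -0.22 for Ppp1r15b and -0.56 (-0.86 to -0.27) for Ifrd1. In each of these 3 the level was somewhat higher in siPKM, and each interval of the change included 0 (0.18 with -0.03 to 0.39 for Atf4, 0.14 with -0.08 to 0.36 for Ppp1r15b and 0.18 with -0.11 to 0.46 for Ifrd1).

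Polyamine genes had 4 members. Odc1, ornithine decarboxylase, the first enzyme of polyamine synthesis, had 2696 and 1924 footprints in the 5' UTR, 49.3 and 50.0 per 100 CDS footprints, and a relative value of 0.10 and 0.08. Azin1, the inhibitor of its antizyme, had 81.7 and 77.9 per 100 and 1.29 and 1.08. The spermine synthase gene Sms (36.0 and 32.0 per 100) and the spermidine synthase gene Srm (4.62 and 4.09) were lower. In Odc1 the many 5' UTR footprints thus went with about as many RNA reads per CDS read, and in Azin1 they exceeded them.

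Terminal oligopyrimidine messages lay lowest of the lists. There were 61 members among the 84 rows of this list, with a median of 3.31 5' UTR footprints per 100 CDS footprints in siCtrl and 2.91 in siPKM. Their median relative 5' UTR translation efficiency was -1.26 and -1.36. The siCtrl interval was below 0 for 47 and above 0 for 7 of the 61, beside 618 and 1285 of all 2818 members. Npm1 (0.53 and 0.32), Rps20 (-0.10 and -0.04) and Eef1a1 (-0.95 and -1.11), the 3 with the most footprints, were all above the median of their list. Because the rule asks for many 5' UTR footprints, the 23 messages of this list that were not members are those with few.

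Of the messages with start codons other than AUG or with internal initiation, 19 of 22 in the table were members, with a median relative value of 0.58 in siCtrl. Eif4g2 (DAP5), whose main frame starts at a GUG, had 1734 and 1433 footprints in the 5' UTR, 19.92 and 18.04 per 100, and relative values of 2.31 and 2.41. Ddx17, an RNA helicase with an upstream non-AUG start, had -0.09 and -0.60, and the ER chaperone Hspa5 had -0.13 and -0.24. For genes with such a start, the footprints of an extended protein can be counted as 5' UTR footprints. Initiation factors and regulators of start codon choice had 21 members of 46 in the table and a median of 0.45 in siCtrl and 0.32 in siPKM. Among them Eif2s2, the beta subunit of eIF2, stood at 0.60 and 0.72, the recycling factor Abce1 at 0.62 and 0.96 and Eif5a at -0.56 and -0.42. RNA binding proteins (62 of 73) had a median of -0.17 and pluripotency genes (25 of 36) one of 0.09. In the pluripotency list Trim28 stood at 0.47 and 0.50, Zfp42 (Rex1) at -0.75 and -0.53 and Dppa5a at -0.68 and -0.39.

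**Figure D3:**
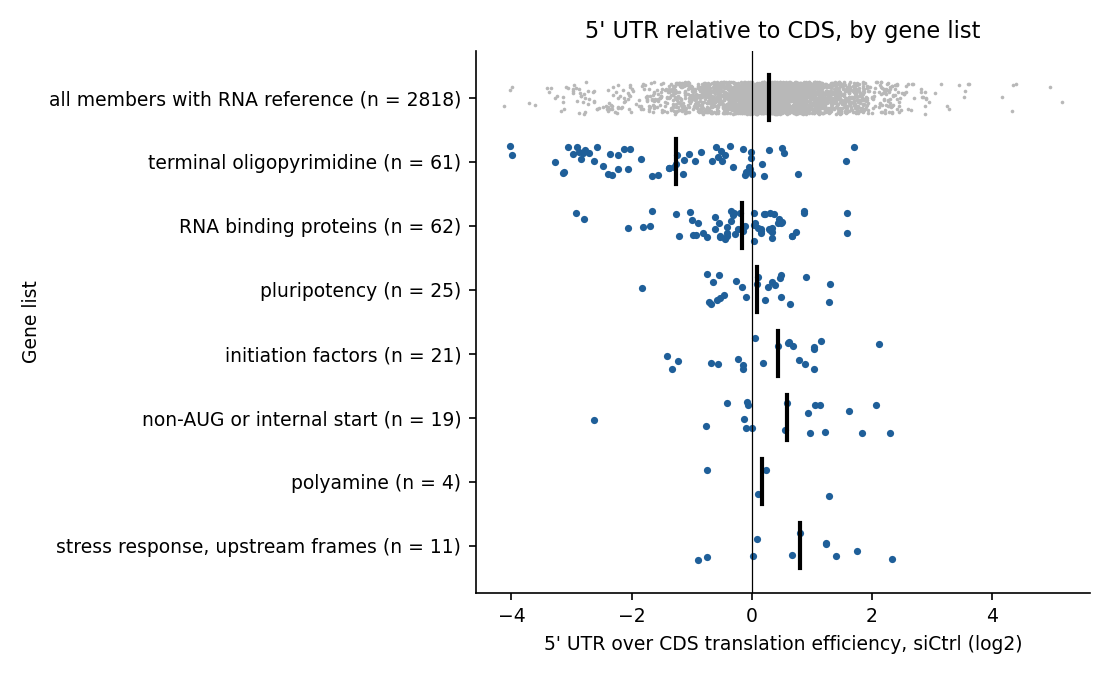
5' UTR translation efficiency relative to CDS translation efficiency in siCtrl (log2, x axis) for all 2818 members with an RNA reference and for the members of 7 gene lists (rows), with 1 point per gene and a bar at each median. The terminal oligopyrimidine list has the lowest median, -1.26, and the list of stress response messages the highest, 0.81.

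After knockdown the level changed little in most members. The median log2 change of 5' UTR footprints per CDS footprint, siPKM over siCtrl, was -0.06, with 1673 of 2835 members (59.0%) below 0, and the quartiles were -0.24 and 0.11. The RNA reference had a median change of -0.05. Centred on the median of all rows with at least 20 5' UTR footprints, the median change of the members was -0.01. The median change was thus small, and that of the RNA reference was about as far below 0.

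A change was called where it was at least 1.5-fold and its interval left out 0. Of the members 42 (1.48%) were called higher in siPKM, against a background of 2.18% of all rows with a 5' UTR footprint in both libraries, and 83 (2.93%) lower, against 3.57%. Both shares were below the background and are no result about the members. With the ratios centred on the median of all rows with at least 20 5' UTR footprints, 62 members were called higher and 68 lower, so the excess of lower calls depended on the scaling. In the RNA reference 61 of 2818 members were higher, against a background of 3.24%, and 140 lower, against 5.59%. The RNA libraries, which hold no footprints, gave more calls among the members than the footprint libraries. Members needed at least 100 5' UTR footprints but only 20 5' UTR RNA reads, so these numbers of calls cannot be compared. CDS translation efficiency was called higher in 2 members, against a background of 0.184%, and lower in 20, against 0.826%.

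The calls were mostly of members with few footprints. Among the 1788 members with at least 200 5' UTR footprints 10 were higher and 23 lower, among the 761 with at least 500 there were 3 and 2, and among the 130 with at least 2000 there were 0 and 0. The 5 with at least 500, a limit chosen after the values were seen, were Ucp2, Gpbp1l1 and Cfdp1 (higher) and Tcea1 and 2700094K13Rik (lower). Cfdp1, a chromatin protein, went from 309 footprints in the 5' UTR to 347 while its CDS went from 1910 to 1399, and 2700094K13Rik (now Selenoh), a selenoprotein, went from 421 to 269 with 680 and 705 in the CDS. Their changes were 0.62 and -0.70, and those of their RNA references -0.07 and 0.04. In both, the RNA reference hardly moved.

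**Figure D4:**
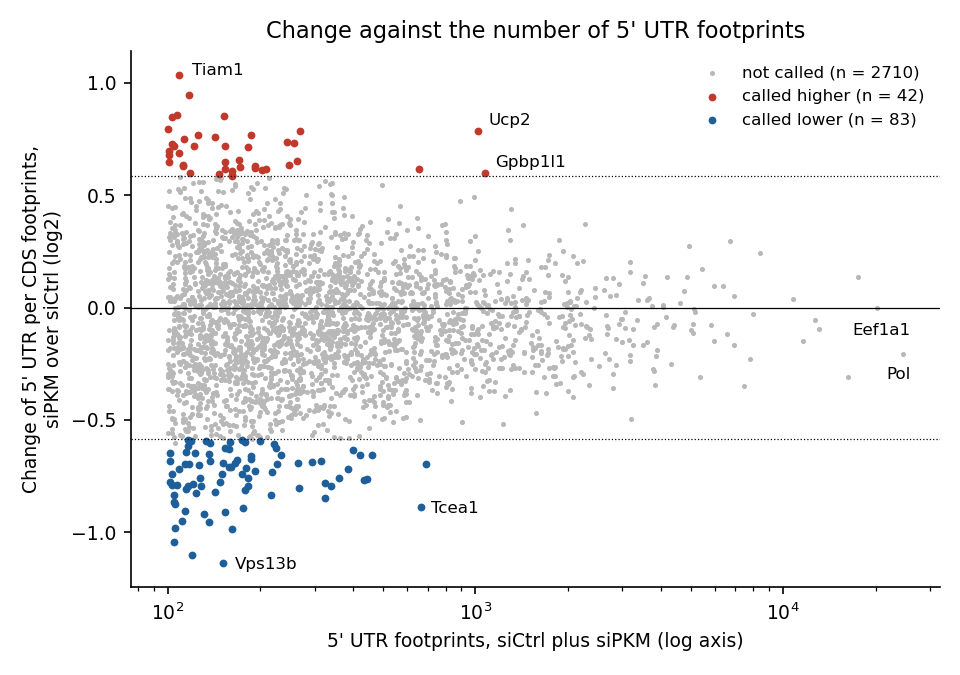
Log2 change of 5' UTR footprints per CDS footprint, siPKM over siCtrl (y axis), against the 5' UTR footprints of both libraries together (x axis, log), 1 point per member, with dotted lines at 1.5-fold. Calls crowd at the left, and with at least 2000 footprints 0 of 130 members were called.

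Among the members called higher, the largest change was that of Tiam1, an exchange factor for the GTPase Rac, at 1.03 (0.47 to 1.60). It had 48 footprints in the 5' UTR in siCtrl and 61 in siPKM, 6.24 and 12.8 per 100, while its RNA reference changed by -0.56 (-1.15 to 0.03). Strada, the pseudokinase partner of LKB1, followed at 0.95 (0.37 to 1.53), from 38 and 79 footprints. The phosphatidylserine synthase Ptdss1 stood at 0.86, the ubiquitin ligase Ube4a at 0.85, Gon4l at 0.85, the endosomal tether Zfyve20 (now Rbsn) at 0.80, the mitochondrial import subunit Tomm7 at 0.79, the synaptic scaffold Dlgap3 at 0.77, the helicase Dhx34 at 0.77, the zinc finger protein Pogz at 0.76 (with 8 and 2 RNA reads in the 5' UTR, too few for a reference) and the kinase Oxsr1 at 0.75. Tomm7 had the most footprints of these 11, 128 and 141 in the 5' UTR, with 1714 and 1095 in the CDS, and an RNA reference that changed by -0.19.

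Ucp2, the mitochondrial uncoupling protein, changed by 0.79 (0.53 to 1.04), from 507 and 514 footprints in the 5' UTR and 621 and 365 in the CDS, or 81.6 (72.5 to 92.0) and 141 (123 to 161) per 100. Its RNA reference changed by 0.37 (-0.08 to 0.82), and the footprint change beyond it was 0.42 (-0.10 to 0.94). Gpbp1l1 went from 158 (138 to 182) to 240 (204 to 283) per 100, a change of 0.60 (0.30 to 0.90), with 561 and 511 footprints in the 5' UTR and 354 and 213 in the CDS. Its RNA reference was level, at 79.5 and 81.6 per 100, and the change beyond RNA was 0.56 (0.23 to 0.89). In Ucp2 and Gpbp1l1 the raw number of 5' UTR footprints was nearly the same in both libraries. Raw CDS footprints were fewer in siPKM, whose footprint library was smaller (12559907 CDS footprints against 15193841 in siCtrl). RNA reads in the 5' UTR numbered 124 and 177 in Ucp2 and 1441 and 1269 in Gpbp1l1. The 5' UTR translation efficiency, which divides footprints by these reads, also takes library size into account. It changed by -0.42 (-0.80 to -0.05) in Ucp2 and 0.12 (-0.09 to 0.32) in Gpbp1l1. CDS translation efficiency changed by -0.84 (-1.20 to -0.48) and -0.44 (-0.71 to -0.18).

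Among the members called lower, Vps13b, a lipid transfer protein of the Golgi, had the largest change, -1.14 (-1.63 to -0.64), from 99 and 52 footprints in the 5' UTR with 1040 and 1207 in the CDS. Haus8, a subunit of the augmin complex of the spindle, changed by -1.10 (-1.67 to -0.53) with its RNA reference at 0.02, and the actin regulator Ccdc88a (girdin) by -1.04. Tcea1, transcription elongation factor TFIIS, had the most footprints of the 12 largest falls. It went from 466 to 198 in the 5' UTR and from 4240 to 3334 in the CDS, 11.0 (9.97 to 12.1) and 5.94 (5.12 to 6.86) per 100, a change of -0.89 (-1.13 to -0.64). RNA reads of Tcea1 gave 11.8 and 10.4 per 100, and the change beyond RNA was -0.70 (-1.05 to -0.35). For Tcea1 the siPKM library thus held fewer footprints in the 5' UTR than its CDS footprints or its RNA reads would give in proportion.

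Arpc2, a subunit of the actin-nucleating Arp2/3 complex, went the same way in RNA. Its footprint change was -0.98 (-1.47 to -0.50) and that of its RNA reference -1.35 (-1.94 to -0.77). Smchd1, a silencing protein of the inactive X chromosome, changed by -0.95 (-1.48 to -0.43) in footprints and by 0.31 (-0.27 to 0.89) in RNA. The others were Fam35a (now Shld2), of the shieldin complex of DNA repair, at -0.98, the chromatin kinase Tlk1 at -0.95, the COPII GTPase Sar1a at -0.92, the autophagy enzyme Atg3 at -0.91, the dynein regulator Ndel1 at -0.90 and Taf15, an RNA binding protein, at -0.89. In these 12 the 5' UTR footprints numbered between 34 and 466 in a library.

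**Figure D5:**
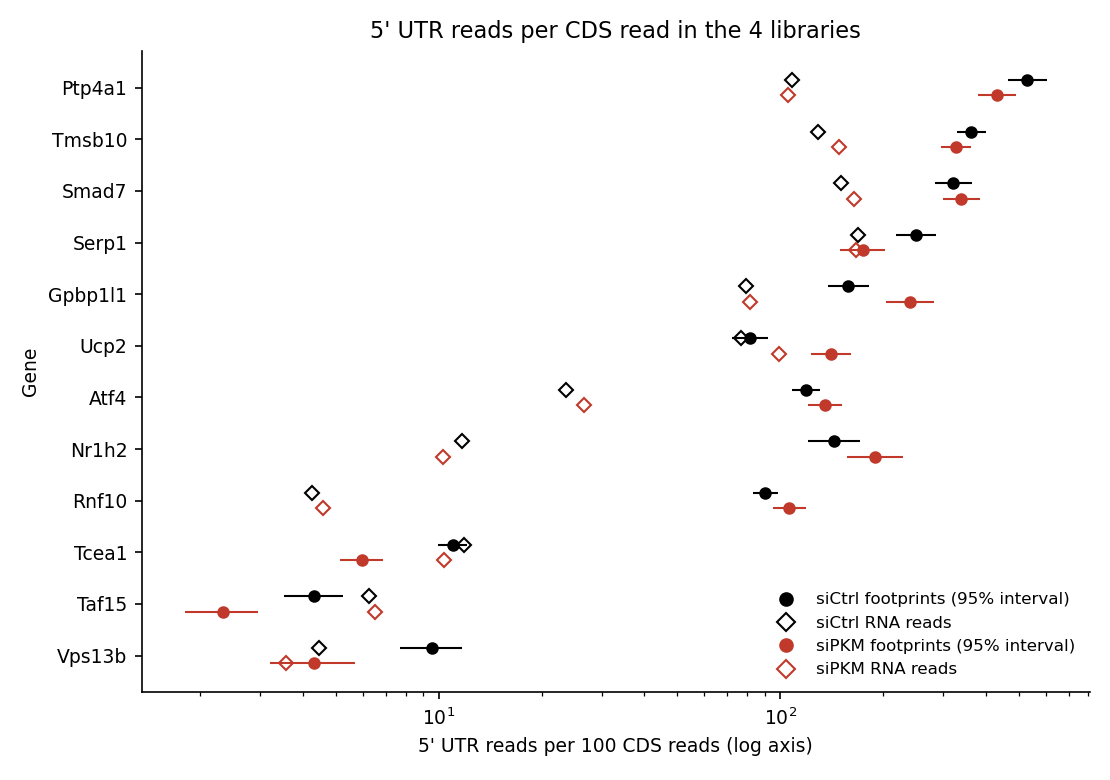
5' UTR reads per 100 CDS reads (x axis, log) of 12 named members (rows) in the siCtrl and siPKM footprint libraries (filled circles with 95% counting intervals) and RNA libraries (open diamonds, no interval drawn). Footprints lie far right of RNA for Rnf10, Nr1h2, Atf4 and Ptp4a1, and the siCtrl and siPKM intervals of footprints are apart for Ucp2, Gpbp1l1, Serp1, Tcea1, Taf15 and Vps13b.

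The changes called in footprints were set beside those of the RNA reference. Of the 40 members called higher that had an RNA reference, 16 had a reference change above 0, 2 were called higher in RNA and 3 lower, where 2.16% of all members were called higher in RNA. Of the 83 called lower 50 had a reference change below 0, 11 were called lower in RNA and 2 higher, where 4.97% of all members were called lower. The median RNA changes were -0.06 and -0.17. Across 2818 members the Spearman correlation of both changes, which come from different libraries, was 0.05. Less the RNA change, the footprint change was called in the same direction for 22 of the 40 and 31 of the 83. Over all members such a difference was called higher in 5.36% and lower in 4.76%, but the footprint change that chose these members is a term of it, so nothing is read from the counts.

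The changes of 5' UTR and of CDS translation efficiency rest on the same 4 libraries, so no correlation between them is given and values are set side by side. The median change in CDS translation efficiency was -0.17 in the 40 members called higher and 0.07 in the 83 called lower, and CDS footprints enter both measures. Rnf10 was lower in both regions, with a CDS change of -0.83 (-0.995 to -0.666) and a 5' UTR change of -0.71 (-1.14 to -0.27). Both regions were also lower for the transcription factor Crebzf, at -0.69 in the CDS and -0.89 (-1.46 to -0.33) in the 5' UTR. The proliferation marker Mki67 stood at -0.60 and -1.34 (-2.29 to -0.40) and the deacetylase Hdac5 at -0.53 and -1.23 (-2.11 to -0.36). For the GTPase regulator Git1, at -0.59 and -0.80 (-1.62 to 0.02), and Stra8, a gene of meiotic entry, at -0.54 and -0.55 (-1.60 to 0.51), the interval of the 5' UTR change included 0. These 6 were chosen as the largest shared changes. Their 5' UTR values rested on 15 to 166 RNA reads per library, with 15 and 28 for Mki67, 28 and 47 for Hdac5 and 15 and 25 for Stra8.

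Among the members with the largest opposite values were Zfp932, at -0.97 in the CDS and 0.49 (-0.25 to 1.22) in the 5' UTR, and the serum response factor Srf, at -0.60 and 0.50 (-0.07 to 1.08). Brca2 stood at -0.48 and 0.52 (-0.31 to 1.34), and the methyltransferase Mll3 (now Kmt2c) at -0.47 and 0.47 (-0.50 to 1.43). The SNARE protein Sec22b had the reverse signs, 0.46 and -0.50 (-1.21 to 0.21). In all 5 the interval of the 5' UTR change included 0, so an opposite change was not detectable at this depth. Their 5' UTR values rested on 17 to 112 RNA reads per library. For Zfp932 the 5' UTR held 91 and 82 footprints and 55 and 37 RNA reads, and the CDS 214 and 151 footprints and 271 and 393 RNA reads. Zfp932 thus had fewer footprints on more RNA reads in the CDS in siPKM, and about as many footprints on fewer RNA reads in the 5' UTR.

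Among the gene lists, 0 members of the stress response, polyamine, initiation factor and pluripotency lists were called in either direction, where the shares over all members were 1.48% and 2.93%. With 11, 4, 21 and 25 members, counts of 0 do not set these lists apart. Called lower were Rps19 of the terminal oligopyrimidine list, at -0.80 (-1.17 to -0.44) with its RNA reference at -0.67, Sp3 of the non-AUG list, at -0.59 (-1.02 to -0.17), and Taf15 of the RNA binding proteins. The median changes of these 7 lists lay between -0.12 (polyamine genes) and 0.14 (stress response messages), beside -0.06 over all members. Of the 11 stress response members 3 were below 0, and of the 61 terminal oligopyrimidine members 40.

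PKM2 crosslinks were a measure that the choice of members did not use. Reverse transcription stops per RNA read over the whole transcript, as the log2 of the mean of both replicates over siCtrl RNA, had medians of -0.40, -0.10, 0.21 and 0.29 from the lowest to the highest quartile of 5' UTR footprints per 100 CDS footprints. The Spearman correlation across 2818 members was 0.20 with that level, 0.21 with the relative 5' UTR translation efficiency and 0.00 with the change after knockdown. The siCtrl RNA reads enter both the crosslink ratio and the relative value, so the points share counts. The stops were not split by region here, so they do not show where in a message PKM2 was crosslinked.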

How the data were processed

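The deposited table held raw counts of reads per transcript region (5' UTR, first 15 codons, CDS, last 5 codons, 3' UTR) for 2 RNA and 2 RPF libraries and counts of reverse transcription stops for 2 CLIP libraries, made by the authors per the file headers. Their log2 translation efficiencies, deposited in the same table, served only as an alternative. Cutadapt, Bowtie2 and the mm9 build are named in the submitters' processing notes; versions and the counting tool are not given in the sources used here. Every row had at least 151 CDS reads in each RNA and RPF library. Of the columns of values, 2 had no sample of their own and were not used. Groups were taken from the sample titles.

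Ratios were computed with Python 3.11.15, pandas 2.3.3, numpy 2.4.6 and scipy 1.17.1 after adding 0.5 reads to each count, except levels per 100, which used counts as deposited with exact Clopper-Pearson intervals. Intervals of log2 ratios (95%) came from the counts. Translation efficiency was scaled by each library's sum of CDS reads, and its change was centred on the median of all 6535 rows. Changes in 5' UTR reads per CDS read were not centred. The calculation was tested on simulated data. RefSeq genes were matched for 2809 members.

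Members and gene lists were chosen with earlier results of these data known. Named were the 15 members highest in 5' UTR footprints per CDS footprint, the 10 with the most footprints, the 12 largest called changes each way, the 10 highest and 10 lowest relative efficiencies, list members (all of lists with 6 or fewer, otherwise the 3 with the most footprints and those called), the 5 rows on each side of the limit, and the 6 largest shared and 6 largest opposite changes. The genes with printed sequences, Cfdp1 and 2700094K13Rik were added after their values were seen. A few rows that the rule names are not reported here. Alternatives changed the CDS region, the member limit, the reads added, the centring, the call limits, the RNA minimum, the translation efficiency used, and left out repeated symbols or the row with the most footprints.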

Additional observations from a re-analysis of the deposited data

How the results depend on the processing

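Of 74 values recomputed for 11 results, 56 stayed within the limit set for each, 18 moved and 0 reversed. The pooled level of 8.86 5' UTR footprints per 100 CDS footprints in siCtrl became 8.10 with all CDS footprints counted, 9.55 for members with a sum of at least 200, 8.98 with at least 50 in each library, 8.83 with 1 row per symbol and 8.69 without the row with the most footprints. In siPKM 8.41 became 7.69, 9.05, 8.53 and, without that row, 8.31. With at least 100 RNA reads in the 5' UTR the median relative 5' UTR translation efficiency fell from 0.30 to 0.16 in siCtrl and from 0.30 to 0.18 in siPKM. Centring moved the median change from -0.064 to -0.0065. With centring, calls went from 42 to 62 higher and from 83 to 68 lower. The members called higher went from 42 to 28 with at least 50 in each library, to 10 with a sum of at least 200 and to 1 at 2-fold. Those called lower went from 83 to 23 with a sum of at least 200, to 51 with at least 50 in each library and to 3 at 2-fold. The stricter limits test fewer rows by construction; otherwise the cause was not tested. The correlation of 0.41 between translation efficiencies that share no counts became 0.47 with a sum of at least 200. With 1 library per group no replicate could be left out. No paired analysis was possible because siCtrl and siPKM had a single library per assay. Called members with an RNA reference had a median of 153.5 (higher) and 154 (lower) 5' UTR footprints, beside 262 over all members.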
